A study of Mus musculus with 30 samples.

Results

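Embryonic stem cells (ESC) of the mouse line E14 that lack the transcription factor Sp3 were compared with wild type (WT) E14 ESC across all genes. The comparison uses the ESC samples that the labels name Sp3KO and WT, 2 biological replicates of each, which are 4 of the 30 RNA samples of the series. The other samples are ESC with a deleted Sp1 DNA binding domain (Sp1_deltaDBD) and 4 later stages of blood cell differentiation of the 3 genotypes, namely Flk1+ mesoderm, 2 stages of hemogenic endothelium (HE1 and HE2) and progenitors. The Sp3-/- cells are described in the study as a full knockout of the gene, whereas both groups share the E14 background, culture on embryonic fibroblast feeders with serum and LIF, and ribosome-depleted total RNA as the sequenced material. The labels name 1 line per genotype and no rescued or second clone, so that the genotype and the history of the line cannot be told apart in any value below.

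Sp3 is a ubiquitous zinc finger protein of the Sp/Klf family which binds GC boxes, short GC-rich elements in the promoters of very many genes, through a DNA binding domain closely related to that of Sp1. The protein can activate or repress depending on the promoter and its modification by SUMO, and mice without it die around birth. In ESC, Sp1 and Sp3 occupy largely the same CG island promoters, many of which belong to genes needed by every cell.

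Values are FPKM, read fragments scaled to transcript length and library size, which the authors quantile-normalised across samples. Of 14685 genes in the table, 14525 exceeded 1 FPKM in at least 1 of the 30 samples and were tested with limma on log2(FPKM + 0.1). A log2 difference therefore understates the change of genes near 0, and a gene was called at a Benjamini-Hochberg adjusted p below 0.05. Replicates were close, with Pearson's r across 11463 expressed genes of 0.97 between the WT samples and 0.99 between the Sp3-/- samples. It was 0.94 between a WT and an Sp3-/- sample. Sequencing depth is unknown, since FPKM do not carry it, and no label gives a batch.

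Sp3 itself, at chr2:72936427-72980446 (mm10, minus strand), was measured first as a check of the labels. Its level was 40.2 and 42.7 FPKM in the WT ESC samples and 4.47 and 5.08 FPKM in the Sp3-/- samples. The groups lay far apart, and the log2 difference was -3.09 ± 0.19 (SE, limma adjusted p = 1.37e-08, n = 2 per group). On average 11.52% of the WT level remained in the gene-level value, and whether those reads come from exons that the knockout allele keeps was not tested. The same check held in every later population, where the level left in Sp3-/- cells was 18.7% of WT in Flk1+ cells, 17.8% in HE1, 11.03% in HE2 and 9.55% in progenitors.

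Of the genes tested, 1644 were called, which is 11.3% of all. Higher levels in Sp3-/- ESC were called for 785 genes (5.4%) and lower levels for 859 genes (5.91%), and the median log2 difference over all genes was -0.02. Most changes were moderate: the median called rise was 2.0-fold and the median called fall 1.73-fold, with 390 rises and 304 falls over 2-fold on the log2(FPKM + 0.1) scale. In all 1644 called genes both Sp3-/- samples lay beyond both WT samples, but with 2 samples against 2 the same was true of 61.0% of all genes tested. These calls borrow the spread between replicates from all 30 samples. With the 4 ESC samples alone limma called 0 genes, although 4469 had an unadjusted p below 0.05, and an exact permutation test of a single gene could not give less than 0.333.

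**Figure D1:**
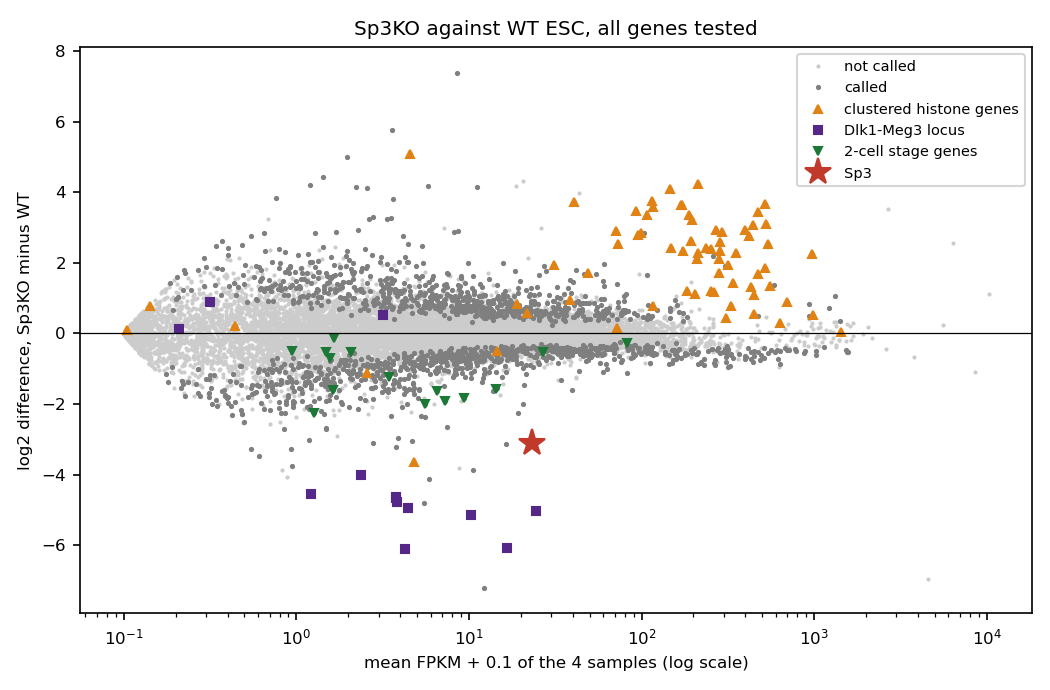
Log2 difference, Sp3KO minus WT ESC, of each of the 14525 genes tested against its mean FPKM + 0.1 over the 4 samples (log scale). Called genes are dark grey, uncalled ones light grey, and members of 3 gene lists and Sp3 are marked; 49 of 69 histone genes were called higher and 10 of 13 genes of the Dlk1-Meg3 locus lower.

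The promoters of genes on which the results turn are shown here, with every GC box in capitals (GGGCGG or its reverse complement CCGCCC; RefSeq, GRCm38, 250 bases before to 50 bases after the annotated start). Sp3 is the deleted gene, Scand1 and Junb rose, and Grb10, Meg3 and Zscan4c fell.
Sp3 (chr2:72980397-72980696, minus strand): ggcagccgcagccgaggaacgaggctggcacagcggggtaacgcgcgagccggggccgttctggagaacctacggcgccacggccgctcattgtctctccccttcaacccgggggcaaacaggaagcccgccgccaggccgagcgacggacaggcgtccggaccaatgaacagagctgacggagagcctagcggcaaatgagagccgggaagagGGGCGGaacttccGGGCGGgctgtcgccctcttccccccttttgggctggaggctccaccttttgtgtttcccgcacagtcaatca
Scand1 (chr2:156312655-156312954, minus strand): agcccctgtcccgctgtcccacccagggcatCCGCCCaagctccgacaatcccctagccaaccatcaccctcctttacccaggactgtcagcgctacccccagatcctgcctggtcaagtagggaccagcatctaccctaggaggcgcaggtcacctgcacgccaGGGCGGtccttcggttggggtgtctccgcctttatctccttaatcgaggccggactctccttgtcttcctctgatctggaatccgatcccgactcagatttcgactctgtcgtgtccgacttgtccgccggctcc
Junb (chr8:84978699-84978998, minus strand): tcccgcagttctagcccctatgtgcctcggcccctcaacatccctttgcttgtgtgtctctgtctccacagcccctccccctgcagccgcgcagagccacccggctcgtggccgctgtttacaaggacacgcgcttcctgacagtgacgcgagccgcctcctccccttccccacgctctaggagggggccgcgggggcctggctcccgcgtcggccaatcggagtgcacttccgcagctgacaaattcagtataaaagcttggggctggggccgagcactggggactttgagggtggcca
Grb10 (chr11:12037371-12037670, minus strand): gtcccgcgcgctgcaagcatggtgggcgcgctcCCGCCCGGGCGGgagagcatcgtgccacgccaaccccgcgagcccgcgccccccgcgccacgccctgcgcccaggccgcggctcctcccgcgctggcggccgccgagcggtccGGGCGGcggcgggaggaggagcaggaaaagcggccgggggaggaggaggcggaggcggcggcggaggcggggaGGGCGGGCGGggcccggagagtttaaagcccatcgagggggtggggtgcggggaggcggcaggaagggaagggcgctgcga
Meg3 (chr12:109540746-109541045, plus strand): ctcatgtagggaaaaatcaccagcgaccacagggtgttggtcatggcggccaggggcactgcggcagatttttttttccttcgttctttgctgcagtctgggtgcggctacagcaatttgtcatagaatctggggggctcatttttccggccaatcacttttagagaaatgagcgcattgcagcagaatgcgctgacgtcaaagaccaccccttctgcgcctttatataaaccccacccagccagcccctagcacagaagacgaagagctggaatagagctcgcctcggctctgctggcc
Zscan4c (chr7:11005495-11005794, plus strand): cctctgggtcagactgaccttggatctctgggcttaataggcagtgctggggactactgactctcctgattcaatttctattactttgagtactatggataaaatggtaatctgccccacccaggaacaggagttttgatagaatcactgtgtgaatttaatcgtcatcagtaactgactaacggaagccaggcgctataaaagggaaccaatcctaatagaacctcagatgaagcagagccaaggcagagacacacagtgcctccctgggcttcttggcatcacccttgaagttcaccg

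The Sp3 and Scand1 windows hold 2 GC boxes each and the Grb10 window 5, some of which overlap, whereas those of Junb, Meg3 and Zscan4c hold none. Across all tested genes with a promoter in the table (11029, first listed start of each gene), 63.2% held at least 1 GC box on either strand. The share was 64.6% among the 577 genes called higher and 69.7% among the 671 called lower, and 3 or more boxes were present in 16.8% and 29.2% of them, against 21.2% of all. The excess of at least 1 box in the lower group was seen among genes at or under the median transcript GC content. There 70.5% of the genes called lower held a box against 60.7% of all. Above that median these shares were close, at 66.1% of the genes called lower and 65.6% of all. The excess of 3 or more boxes was seen on both sides of the median. Such promoters made up 28.5% of the genes called lower against 20.2% of all at or under it, and 32.2% against 22.2% above it. A match of letters is a description of the sequence and does not show binding by Sp3.

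Within the Sp family, Sp3 was the member with the largest change. Sp1, the closest relative, had 47.3 and 52.4 FPKM in WT and 42.6 and 42.9 FPKM in Sp3-/- ESC, a log2 difference of -0.22 ± 0.17 (SE) that was not called (limma adjusted p = 0.469). Sp2, a family member with roles in early development, was called higher, with 3.99 and 7.72 FPKM in WT against 10.9 and 11.2 FPKM (log2 difference 0.98 ± 0.28, limma adjusted p = 0.0315). That call was lost after correction for GC content and length (limma adjusted p = 0.0846) and with the 6 ESC samples alone (0.155). Sp5, a Wnt target in ESC and mesoderm, was called lower from a very low level, 0.544 and 0.328 FPKM in WT against 0 and 0.102 FPKM. Sp4, a relative with neural functions, was at 2.81 and 2.72 FPKM in WT and 2.05 and 2.32 FPKM in Sp3-/- ESC and was not called. None of the 16 Klf factors tested, which bind related GC-rich motifs, was called by limma, and 0 of them had a call in any of the 4 fits that leave out a sample. The log2 differences of the Klf genes ran from -0.58 to 1.02. Among 14 other factors of CG island promoters, such as Nfya, Yy1, Nrf1 and Gabpa, only the zinc finger gene Zfx was called, from 5.36 and 7.15 FPKM to 11.6 and 12.4 FPKM.

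The core pluripotency factors were expressed at high levels in both genotypes, and none passed the test. Pou5f1, which encodes Oct4, had 501 and 489 FPKM in WT and 450 and 443 FPKM in Sp3-/- ESC. Nanog had 121 and 130 FPKM in WT against 127 and 112 FPKM, and Sox2 had 93.6 and 71.7 FPKM against 116 and 107 FPKM. The adjusted p of all 3 genes was above the threshold, and the levels show that the samples carry the defining markers of the labelled cell type. Of 9 ESC markers only Utf1, a chromatin factor of pluripotent cells, was called, rising from 24.8 and 27.2 FPKM to 86.1 and 79.9 FPKM (log2 difference 1.67 ± 0.35, limma adjusted p = 0.00441), a call that was lost after correction for GC content (log2 difference 0.40). None of the 21 naive pluripotency genes tested passed the threshold, and their median log2 difference was 0.25. Of 13 primed pluripotency genes, Foxd3 and Sox4 were called higher (15.4%, against 5.4% of all genes) and the cadherin gene Cdh2 lower (7.69%, against 5.91%). The call of Foxd3 was lost after correction for GC content and length (log2 difference -0.22), and those of Sox4 and Cdh2 were kept. With the 6 ESC samples alone limma called 0 of the 13 higher and 1 lower. Cdh2 fell from 3.88 and 3.26 FPKM to 0.855 and 0.989 FPKM (log2 difference -1.84 ± 0.20, limma adjusted p = 4.23e-05).

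ESC were grown on fibroblast feeders, so markers of these cells were examined too. The study describes 2 passages without feeders before differentiation, and whether the ESC RNA was taken after them is not given in the sources used here. The summed level of the 12 tested markers was 19.3 and 14.6 FPKM in WT and 13.3 and 24.98 FPKM in Sp3-/- ESC, and limma called 0 of them. The Sp3-/- sample with the higher sum, replicate 2, had 3.64 FPKM of the collagen gene Col1a1, whereas replicate 1 had 1.09 FPKM and the WT samples had 1.57 and 0.766 FPKM. Bulk RNA cannot separate fewer cells of a type from less RNA per cell.

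The largest falls included Meg3, Rian and Rtl1, which lie side by side in the imprinted Dlk1-Meg3 domain of chromosome 12. In this domain the maternal chromosome is known to express the noncoding RNAs Meg3 and Rian, the latter a host of C/D box small nucleolar RNAs (snoRNAs), while the paternal one expresses the protein-coding genes Dlk1 and Rtl1. Meg3 (chr12:109541001-109571726) had 18.03 and 21.5 FPKM in WT and 0.306 and 0.659 FPKM in Sp3-/- ESC, a log2 difference of -5.16 ± 0.79 (limma adjusted p = 0.000463). Rian (chr12:109603940-109661716) had 43.9 and 50.4 FPKM in WT and 1.29 and 1.39 FPKM in Sp3-/- ESC (log2 difference -5.03 ± 0.82, limma adjusted p = 0.000753). Both noncoding RNAs were thus near 0 in each Sp3-/- sample, at 2.44% and 2.84% of their mean WT levels. Rtl1 (chr12:109589193-109600330), a retrotransposon-derived gene, fell from 3.16 and 5.59 FPKM to 0.157 and 0.176 FPKM. It lies opposite a maternal antisense transcript, and the study describes counting with default settings and names no strand option, so the sense and antisense reads cannot be told apart.

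The C/D box snoRNAs inside Rian were lower as well, and 4 of them are shown to make plain what was measured, with box C (TGATGA) and the last box D (CTGA) in capitals (GENCODE M21, GRCm38, plus strand).
AF357425 (chr12:109636012-109636084): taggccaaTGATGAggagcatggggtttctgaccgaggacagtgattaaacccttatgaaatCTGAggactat
DQ267100 (chr12:109649617-109649688): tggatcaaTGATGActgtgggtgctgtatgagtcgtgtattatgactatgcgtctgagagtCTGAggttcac
DQ267101 (chr12:109651424-109651496): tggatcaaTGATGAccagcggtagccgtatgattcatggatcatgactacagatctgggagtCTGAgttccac
DQ267102 (chr12:109656345-109656416): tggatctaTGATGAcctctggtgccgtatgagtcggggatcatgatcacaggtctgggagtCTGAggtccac

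In these 4 genes box C starts at base 9, and the last CTGA at base 62 or 63. For comparison, 24.0% of 1507 annotated mouse snoRNA transcripts hold TGATGA followed by CTGA, a share taken over box H/ACA RNAs as well. AF357425 had 8.85 and 7.85 FPKM in WT and 0.661 and 0 FPKM in Sp3-/- ESC. DQ267100 went from 6.31 and 8.06 FPKM to 0 and 0.581 FPKM, and DQ267102 from 5.06 and 9.03 FPKM to 0.0182 and 0.516 FPKM. DQ267101 had 2.098 and 2.38 FPKM in WT and was listed at 0 in both Sp3-/- samples. All 7 snoRNA genes of the domain that were tested were called lower. Values of RNAs this short may include reads of their host transcript, from which they cannot be told apart here.

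In all, the 13 tested genes of the domain and its borders had a median log2 difference of -4.67 beside -0.02 over all genes. Of these 13, 10 were called lower (76.9%, against 5.91% of all genes) and none higher. The exceptions were Dlk1, which was barely detected in every sample (0.0394 and 0.161 FPKM in WT, 0.177 and 0.0554 FPKM in Sp3-/- ESC), and the bordering genes Begain and Wdr25. The called snoRNA genes all lie inside Rian, so that the count and the median may in part repeat the level of Rian. Sp1_deltaDBD ESC had 22.2 and 20.6 FPKM of Meg3. In the later populations Meg3 stayed low in Sp3-/- cells, at 4.03% of WT in Flk1+ cells, 1.52% in HE1 and 6.12% in HE2. In progenitors WT samples had only 1.58 and 0.154 FPKM, and the log2 difference of -2.07 was not called (limma adjusted p = 0.114). The Sp3KO effect on Meg3 did not pass the test of a difference between ESC and Flk1+ cells (difference -0.70, limma adjusted p = 0.89). Between 5 and 7 genes of the domain remained past the threshold when 1 of the 4 ESC samples was left out, and 10 after correction for GC content and length.

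Imprinted genes elsewhere moved in the same direction where they were called. Of 49 tested, 9 were called lower (18.4%, against 5.91% of all genes) and none higher, and their median log2 difference was -0.21. The largest change was that of Grb10 (chr11:11930508-12038683), an adaptor protein that restrains growth factor signalling and is imprinted on the maternal or paternal side depending on tissue. Grb10 fell from 33.7 and 30.2 FPKM to 7.22 and 5.93 FPKM (log2 difference -2.27 ± 0.25, limma adjusted p = 4.9e-05). Mest (chr6:30723547-30748465), a paternally expressed hydrolase gene, fell from 28.3 and 37.0 FPKM to 7.52 and 8.60 FPKM (log2 difference -1.996 ± 0.27, limma adjusted p = 0.000243). Both Sp3-/- samples lay far below both WT samples for these genes. Mest was also at 21.8% to 35.2% of the WT level in all later populations, among them HE1, where WT cells had 1111 and 1376 FPKM and Sp3-/- cells 410 and 256 FPKM. For Grb10 the remaining level was 20.6% of WT in ESC and 49.0% to 71.8% in the later populations, and the difference between the ESC and Flk1+ effects was not called (-1.21, limma adjusted p = 0.105). The other called genes were Peg10, Usp29, Zdbf2, Zrsr1, Impact, Gnas and Inpp5f, and after correction for GC content and length 6 imprinted genes were lower and 1 was higher. With 1 of the 4 ESC samples left out, 3 to 5 were called lower. H19, Igf2, Snrpn and Kcnq1ot1, which mark other imprinted domains, were not called. Of 18 genes of the DNA methylation machinery limma called only Mbd3 (31.1 and 28.7 FPKM in WT, 41.7 and 43.5 FPKM in Sp3-/- ESC), and that direction turned after correction for GC content, with a log2 difference of -0.58.

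**Figure D2:**
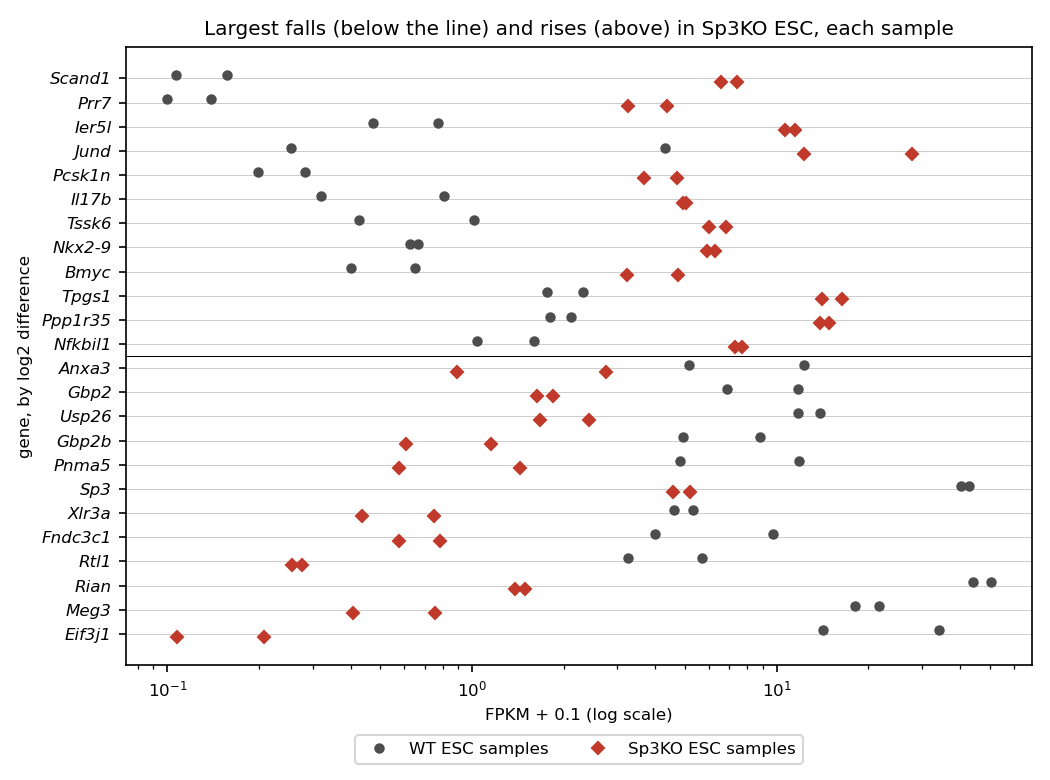
FPKM + 0.1 (log scale) of each WT (circles) and Sp3KO (diamonds) ESC sample for the 12 genes with the largest called falls, below the line, and the 12 with the largest called rises, above it. The groups do not overlap in any gene, which the naming rule required; Sp3 sits at 40.2 and 42.7 FPKM in WT and at 4.47 and 5.08 in Sp3KO before 0.1 is added.

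Some of the other large falls were those of neighbouring genes. On the X chromosome Pnma5, Xlr3a and Xlr3b are the 3 genes tested between positions 73033981 and 73202930, and all were called lower. Xlr3a, an X-linked lymphocyte-regulated gene of germ cells and brain, fell from 5.21 and 4.50 FPKM to 0.652 and 0.334 FPKM (log2 difference -3.11 ± 0.61, limma adjusted p = 0.00278). Xlr3 copies are close to identical, so the split of reads between Xlr3a and Xlr3b is uncertain. Pnma5, derived from a retrotransposon, fell from 4.73 and 11.8 FPKM to 1.34 and 0.477 FPKM, and was also low in Sp1_deltaDBD ESC (0.512 and 0.593 FPKM). On chromosome 3 the neighbours Gbp2b and Gbp2, interferon-inducible guanylate-binding proteins, were both called lower. Gbp2 fell from 11.6 and 6.79 FPKM to 1.75 and 1.53 FPKM. Psmb8, an interferon-inducible proteasome subunit, fell from 4.70 and 1.80 FPKM to 0.534 and 0.681 FPKM. These neighbourhoods were picked out after their values were seen.

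Fndc3c1 and Usp26, germ cell genes of the X chromosome, were called lower, Fndc3c1 from 9.60 and 3.88 FPKM to 0.477 and 0.685 FPKM (log2 difference -3.21 ± 0.28, limma adjusted p = 5.32e-06). Usp26, a deubiquitinase, fell from 13.8 and 11.6 FPKM to 2.31 and 1.58 FPKM, whereas the Sp1_deltaDBD samples had 38.8 and 47.7 FPKM. Anxa3, a calcium-dependent membrane-binding protein, fell from 12.2 and 5.04 FPKM to 0.796 and 2.66 FPKM. The listed fall of Eif3j1, a translation initiation factor subunit, from 14.1 and 34.1 FPKM to 0.107 and 0.00748 FPKM is uncertain, because a near-identical copy, Eif3j2, shares its reads. The sum of both copies was 36.8 and 34.1 FPKM in WT and 29.9 and 29.8 FPKM in Sp3-/- ESC. Of the 26 germline genes tested 3, Xlr3a, Xlr3b and Usp26, were called lower (11.5%, against 5.91% of all genes). The homeobox gene Rhox5 alone was called higher (3.85%, against 5.4%), from 69.7 and 36.9 FPKM to 116 and 103 FPKM.

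Of 15 tested genes that mark the rare 2-cell-like state of ESC cultures, 7 were called lower in Sp3-/- ESC (46.7%, against 5.91% of all genes) and none higher. The called genes were Zscan4a, Zscan4b, Zscan4c, Zscan4d and Zscan4f, besides Tcstv3 and BB287469, so that the share counts related copies separately. After correction for GC content and length 7 were called lower, and with the 6 ESC samples alone limma called 1. All 15 had a negative log2 difference, with a median of -1.25. Zscan4c, one of the defining zinc finger genes of that state, had 11.8 and 17.3 FPKM in WT and 4.48 and 3.53 FPKM in Sp3-/- ESC (log2 difference -1.82, limma adjusted p = 0.000266). The Zscan4 copies share long stretches of sequence, and the sum of the 5 genes was 49.7 and 82.5 FPKM in WT against 22.01 and 15.9 FPKM, without overlap. Tcstv3, a further gene of the group, fell from 1.64 and 2.24 FPKM to 0.601 and 0.15 FPKM. The Sp1_deltaDBD samples, compared with the same WT samples, had a Zscan4 sum of 17.99 and 18.1 FPKM, so that the WT samples were the higher ones against both mutants.

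The genes with the largest rises encode proteins of varied function. Scand1 (chr2:156311847-156312704), a SCAN domain protein, had 0.00704 and 0.0573 FPKM in WT and 7.33 and 6.46 FPKM in Sp3-/- ESC (log2 difference 5.75 ± 0.88, limma adjusted p = 0.000486). Prr7, an adaptor protein of synapses and T cells, had 0.0389 and 0 FPKM in WT and 3.14 and 4.25 FPKM in Sp3-/- ESC. Ier5l, related to an immediate early protein, rose from 0.672 and 0.374 FPKM to 11.3 and 10.5 FPKM (log2 difference 4.19 ± 0.61, limma adjusted p = 0.000378). Each of these genes was close to absent in WT and at several FPKM in both Sp3-/- samples.

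Pcsk1n, an inhibitor of the prohormone convertase PC1, rose from 0.0978 and 0.183 FPKM to 4.6 and 3.57 FPKM. Nkx2-9, a homeobox gene, rose from 0.523 and 0.567 FPKM to 6.16 and 5.80 FPKM, and was also high in Sp1_deltaDBD ESC, at 7.26 and 3.62 FPKM. Tpgs1, a subunit of the tubulin polyglutamylase complex, rose from 1.67 and 2.21 FPKM to 16.3 and 14 FPKM. Ppp1r35, a centrosomal protein, rose from 2.01 and 1.70 FPKM to 13.8 and 14.8 FPKM. The remaining members of this group of 12 were Jund, Il17b, Tssk6, Bmyc and Nfkbil1. All 12 have GC-rich transcripts, with a GC content of the longest transcript of 57.3% to 69.0% against a median of 49.8% over all genes, whereas the 12 genes with the largest falls ranged from 35.8% to 54.6%. After correction for GC content and length 11 of the 12 rises and 11 of the 12 falls were still called, at smaller sizes for the rises (log2 difference of Scand1 3.37, of Prr7 2.54). With 1 of the 4 ESC samples left out, 10 or 11 of the rises and 7 to 9 of the falls kept a call.

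The clustered histone genes, which encode the replication-dependent core and linker histones and whose mRNA lacks a poly(A) tail, rose together. Of 69 tested, 49 were called higher (71.0%, against 5.4% of all genes) and none lower, with a median log2 difference of 2.26. The difference was positive in 66 and negative in 3, down to -3.65, and with the 6 ESC samples alone limma called 21 higher. The summed level of the 69 genes was 11250 and 7315 FPKM in WT and 29515 and 27300 FPKM in Sp3-/- ESC. It was 15183 and 10910 FPKM in Sp1_deltaDBD ESC. Both Sp3-/- samples lay above all 4 other ESC samples. Hist1h2ao, an H2A gene, had 0.191 and 0.136 FPKM in WT and 9.72 and 7.87 FPKM in Sp3-/- ESC, and Hist2h2aa1 had 24.6 and 18.4 FPKM against 417 and 390 FPKM. Many histone genes are near-identical copies, so that values of single genes are uncertain and the sum is the firmer measure. Histone transcripts are also GC-rich, with a median of 57.9%, and after correction for GC content and length 36 were called higher with a median of 1.26. Hist1h2ao and Hist2h2aa1 were not among these 36 (limma adjusted p = 0.0723 and 0.196). In every later population the sum was higher in both Sp3-/- samples than in both WT samples, at 213% of WT in Flk1+ cells, 220% in HE1, 188% in HE2 and 146% in progenitors.

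Immediate early genes, whose transcription follows growth factor signals within minutes, changed in both directions. Of 25 tested, Jund, Junb and Ier2 were called higher (12%, against 5.4% of all genes) and Fosl2 and Dusp2 lower (8%, against 5.91%). Junb, a subunit of the transcription factor AP-1, rose from 9.30 and 4.09 FPKM to 25.3 and 24.2 FPKM (log2 difference 1.99 ± 0.39, limma adjusted p = 0.0029). Jund, another AP-1 subunit, was uneven among the WT samples, at 0.155 and 4.19 FPKM, and had 27.7 and 12.2 FPKM in Sp3-/- ESC, and its call was lost after GC correction (limma adjusted p = 0.189). The other AP-1 gene called, Fosl2, fell from 1.13 and 0.585 FPKM to 0.243 and 0.281 FPKM.

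Among 20 genes of the BMP pathway, which supports ESC self-renewal in serum through the Id genes, 3 were called higher and 1 lower. Id1, a direct BMP target that blocks differentiation factors, rose from 24.5 and 19 FPKM to 57.7 and 47.8 FPKM (log2 difference 1.28 ± 0.40, limma adjusted p = 0.0458). Id3 rose from 18.2 and 14.6 FPKM to 33.4 and 28.9 FPKM, and Smad6, an inhibitor of the pathway, from 0.62 and 0.892 FPKM to 2.88 and 3.68 FPKM. The receptor gene Bmpr2 fell from 5.97 and 5.36 FPKM to 3.56 and 2.91 FPKM. The Id1 and Id3 calls were lost after correction for GC content, and that of Smad6 was kept. The shares of all genes called were 5.4% higher and 5.91% lower, and 1 member of the list was called higher in each fit without a single sample.

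Of 25 p53 targets and cell cycle inhibitors 6 were called higher (24.0%, against 5.4% of all genes) and 1 lower (5.91% of all genes). Cdkn2a, the locus of the cell cycle inhibitors p16 and p19Arf, rose from 1.04 and 0.449 FPKM to 4.69 and 3.46 FPKM (log2 difference 2.38 ± 0.62, limma adjusted p = 0.0172). Cdkn1b, which encodes p27, rose from 5.08 and 4.30 FPKM to 9.94 and 10.1 FPKM, and Cdkn1a, which encodes p21, from 5.74 and 3.81 FPKM to 7.78 and 7.66 FPKM. Bbc3, the proapoptotic Puma, rose from 4.31 and 2.08 FPKM to 8.33 and 8.42 FPKM. Ccng1, a p53 target at high level in ESC, fell from 91.4 and 78.2 FPKM to 42.0 and 41.5 FPKM. After correction for GC content and length 2 members were higher and 3 lower, so the balance of directions in this list depends on that correction. The calls of Cdkn2a (limma adjusted p = 0.082) and Bbc3 (log2 difference -0.08) were among those lost, and 1 to 6 members were called higher with 1 of the 4 ESC samples left out.

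Metabolic genes changed by smaller amounts. Of 13 fatty acid synthesis genes 5 were called lower (38.5%, against 5.91% of all genes) and none higher. Scd2, a stearoyl-CoA desaturase, fell from 104 and 111 FPKM to 64.3 and 67.8 FPKM (log2 difference -0.70 ± 0.15, limma adjusted p = 0.0049), and Acaca, the enzyme of the committed step, from 36.5 and 35.8 FPKM to 21.9 and 23.6 FPKM. Of 28 glycolysis and hypoxia genes 6 were called lower (21.4%, against 5.91%) and none higher. The glucose transporter gene Slc2a3 fell from 334 and 268 FPKM to 158 and 160 FPKM, and Pgk1, a glycolytic kinase, from 428 and 327 FPKM to 237 and 236 FPKM. The Sp1_deltaDBD samples had 320 and 224 FPKM of Pgk1, a range that spans the Sp3-/- values. After correction for GC content and length 4 genes of each of these lists were called lower, without Slc2a3 (limma adjusted p = 0.146) and Pgk1 (0.0608). With 1 of the 4 ESC samples left out, 0 to 3 fatty acid synthesis genes and 1 to 3 glycolysis and hypoxia genes were called lower by limma, and 2 of the former were called when chromosome medians were subtracted. With the 6 ESC samples alone limma called 2 genes of the former list and 0 of the latter.

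**Figure D3:**
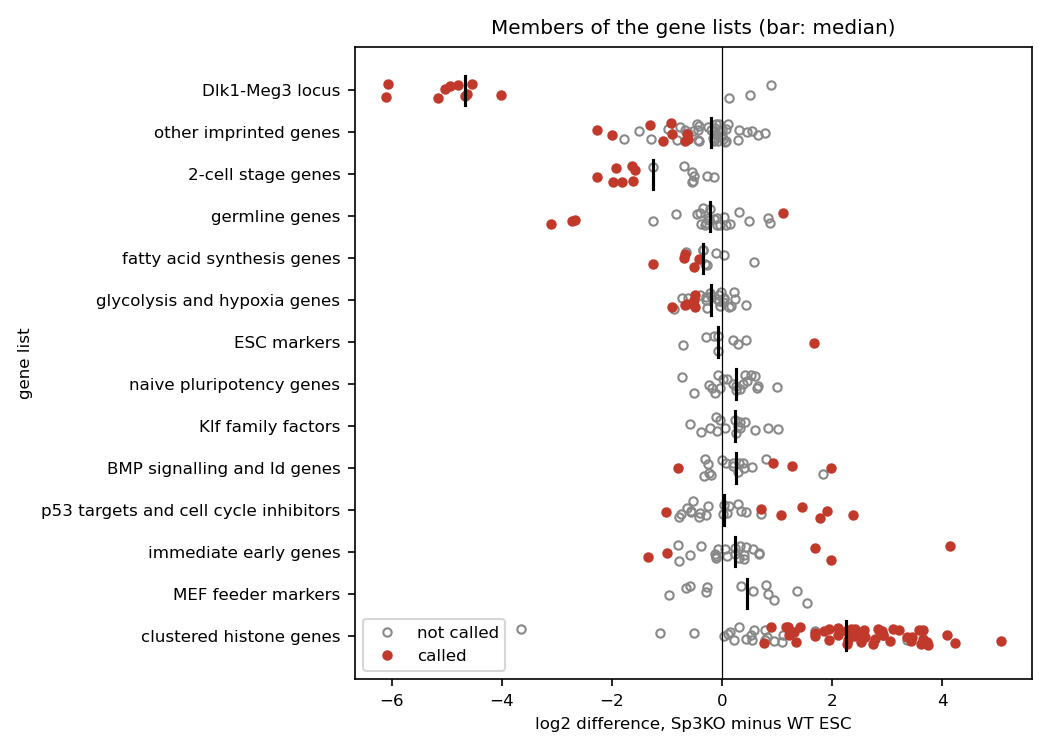
Log2 difference, Sp3KO minus WT ESC, of every tested member of 14 gene lists, with called genes filled and a bar at each list's median. The Dlk1-Meg3 locus lies lowest, with a median of -4.67, and the histone genes highest, with a median of 2.26, whereas the pluripotency lists scatter around 0.

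Across all genes, the size and direction of the difference followed the base composition of the transcript. Spearman's rank correlation between the log2 difference and GC content was 0.53 over 11394 genes, which are not independent replicates. In the decile of genes with the lowest GC content the median log2 difference was -0.34, with 0.526% of genes called higher and 15.6% lower. In the decile with the highest GC content the median was 0.53, with 28.5% called higher and 0.263% lower. The relation was found for each Sp3-/- sample against each WT sample, with coefficients from 0.44 to 0.53, while it was 0.09 between the WT replicates and 0.00 between the Sp3-/- replicates. For Sp1_deltaDBD minus WT ESC it was 0.25, but the deviations of its replicates from the mean of the 6 ESC samples had opposite signs, 0.19 and -0.30. With 2 samples per group a library property and the genotype cannot be told apart here. When GC content and length were removed with splines in each sample, 1075 genes were called, among them 337 of the 785 higher and 406 of the 859 lower genes.

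**Figure D4:**
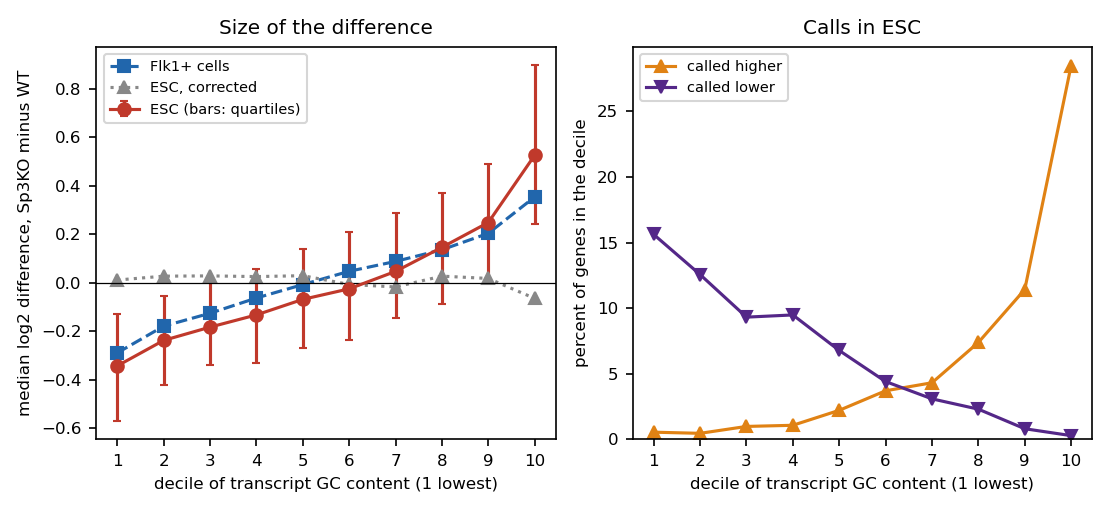
Left, median log2 difference (Sp3KO minus WT) in deciles of transcript GC content in ESC with quartile bars, in Flk1+ cells, and in ESC after correction. Right, percent of genes called in each decile in ESC; calls of higher levels go from 0.526% to 28.5% and those of lower levels from 15.6% to 0.263% between the lowest and highest decile.

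Chromosomes differed in their balance of calls. On chromosome 11, 142 of 964 expressed genes were called lower and 24 higher, beside 738 lower calls among 11441 genes of all chromosomes, with a median log2 difference of -0.18. The value was -0.22 after GC correction, whereas the other 18 autosomes then lay between 0.00 and 0.07. A lower chromosome 11 was also seen in the Sp3-/- cells of every later population, with medians of -0.12 in Flk1+ cells, -0.24 in HE1, -0.28 in HE2 and -0.27 in progenitors. In Sp1_deltaDBD ESC the median against the same WT samples was -0.23, and both WT samples lay above the mean of the 6 ESC samples (0.13 and 0.16) while all 4 mutant samples lay below it. The X chromosome had a median of -0.19, with 59 of 385 genes called lower, and its genes have a lower median GC content, 45.5%. After GC correction the X median was -0.05, still below the 18 autosomes other than 11, with 31 genes called lower and 7 higher.

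Of 6 Y-linked genes tested in this male line, 5 were called lower in Sp3-/- ESC, beside 5.91% of all genes tested. Eif2s3y, a translation initiation factor subunit, had 32.4 and 26.7 FPKM in WT and 13.5 and 12.7 FPKM in Sp3-/- ESC (log2 difference -1.16 ± 0.13, limma adjusted p = 4.64e-05). Ddx3y, an RNA helicase, went from 10.96 and 9.99 FPKM to 4.04 and 3.28 FPKM (log2 difference -1.50 ± 0.18, limma adjusted p = 9.6e-05), and Uty, a histone demethylase homologue, from 7.94 and 6.70 FPKM to 2.07 and 2.21 FPKM. The gene without a call, Kdm5d, was under 0.2 FPKM in all 4 samples. All 5 were also called after GC correction. Ddx3y was at 34.9% of WT in ESC and at 24.7% to 29.1% in the later populations. In Flk1+ cells the log2 difference was -1.84 for Ddx3y, -1.51 for Eif2s3y and -2.12 for Uty. It was only -0.13 for Uba1y and 0.11 for Zfy1, and neither of these was lower in HE1, HE2 or progenitors. Zfy1 also passed the test of a difference between the ESC and Flk1+ effects (limma adjusted p = 0.0166). The Sp1_deltaDBD ESC samples were mixed, with 5.51 and 7.21 FPKM of Ddx3y, 2.78 and 2.40 FPKM of Uba1y and 0.119 and 0.108 FPKM of Zfy1, all below both WT samples. Their Eif2s3y (41.4 and 44.8 FPKM) and Uty (8.82 and 13.9 FPKM) lay above both WT samples.

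**Figure D5:**
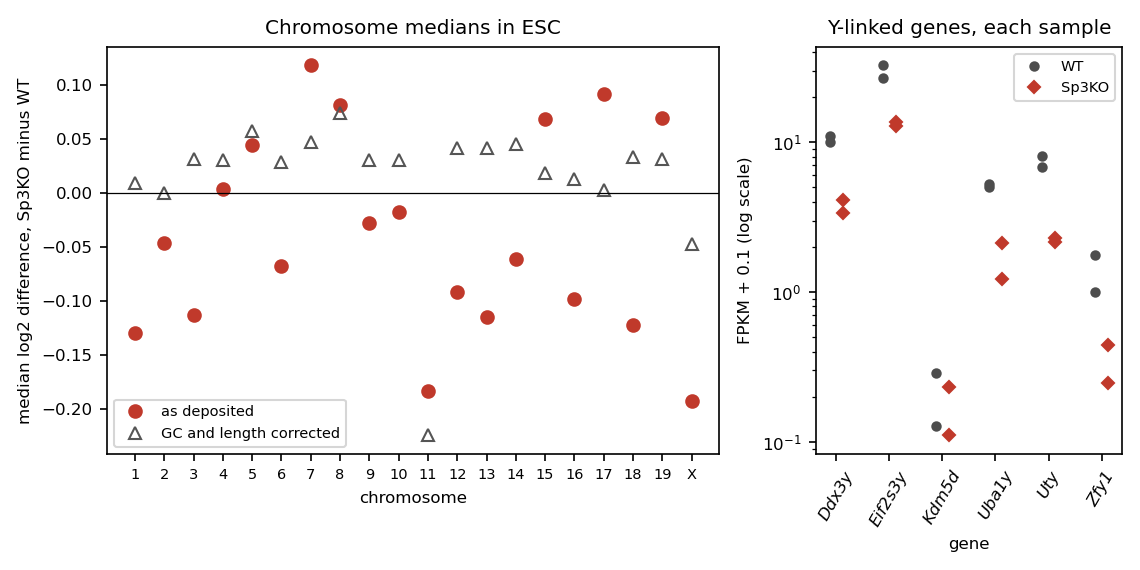
Left, median log2 difference (Sp3KO minus WT ESC) of expressed genes per chromosome, as deposited (circles) and after GC and length correction (triangles) for the autosomes and X, among which chromosome 11 is the lowest after correction. Right, FPKM + 0.1 (log scale) of each sample for the 6 tested Y-linked genes, of which 5 lie lower in both Sp3KO samples than in both WT samples and were called.

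The Sp3KO effect in ESC was set beside that in Flk1+ cells, the first sorted stage of differentiation, by testing the difference of the effects. This interaction was called for 215 genes (1.48%), of which 145 had the more negative effect in ESC and 70 the more positive one, and 110 of the 215 were also called in ESC. Fndc3c1 was lower by 3.21 in ESC on the log2 scale and by 0.27 in Flk1+ cells, a difference of -2.94 ± 0.40 (limma adjusted p = 0.000886). Cdh2 had log2 differences of -1.84 in ESC and 0.65 in Flk1+ cells (difference -2.50 ± 0.28, limma adjusted p = 0.000187). No gene of the Dlk1-Meg3 locus and 1 of the 69 histone genes was called for such a difference.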

How the data were processed

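Total RNA of E14 ESC and sorted derivatives was sequenced with paired ends after ribosomal depletion (TruSeq Stranded Total RNA). Per the labels and methods, the authors trimmed reads, aligned them to mm10 with HISAT2 2.1.0, computed gene FPKM with StringTie 1.3.3, filtered out genes that never exceeded 1 FPKM, and applied quantile normalisation before the FPKM were deposited. Their annotation is not given in the sources used here. All 30 columns were matched to samples by name, and no pair was identical. The authors' normalisation makes all samples share 1 distribution, so a difference is relative to the other genes.

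From these values, log2(FPKM + 0.1) of 14525 genes was fitted with limma 3.58.1 (R 4.3.3; trend, two-sided, Benjamini-Hochberg) as 15 group means over 30 samples, which leaves 15 residual degrees of freedom, and the contrast of Sp3KO and WT ESC was taken. The script was tested on simulated data. Gene positions, GC content and length are those of GENCODE M21 (14559 of 14685 symbols matched, 189 of them by an older symbol), and promoters those of RefSeq GRCm38. Chromosome and GC summaries used genes with a mean of at least 1 FPKM in the 4 ESC samples. The correction for GC content and length removed natural splines with 5 degrees of freedom from each sample's deviations.

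Named genes were the 12 largest called rises and falls with a group mean above 3 FPKM and no overlap between groups, leaving out histone, small RNA and unnamed gene models, plus Sp3 and up to 2 called members in each direction of each list, or the 2 most highly expressed where none was called. Other genes in the text are members of those lists given as further examples, apart from the Y-linked genes and Eif3j2. The former came from the chromosome summary, and the latter is the copy of Eif3j1. The members and gene lists were chosen with earlier results of these data known. Replicate numbers did not pair the WT and Sp3KO ESC samples (correlation of deviations 0.02). Between WT and Sp1_deltaDBD ESC, Pearson's r was 0.955 and 0.956 at the same replicate number, and 0.944 and 0.935 across numbers. The study's methods call replicates biological and the labels name no separate clones, so the p-values measure the spread between such samples only.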

Additional observations from a re-analysis of the deposited data

Results flagged for a closer look

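For 9 of the genes picked by the naming rule, the Sp3KO effect differed between ESC and Flk1+ cells. The test was the interaction in limma (log2 scale, ESC minus Flk1+). The effect was lower in ESC for Fndc3c1 (difference -2.94), Cdh2 (-2.50), Sp5 (-5.14), Dusp2 (-2.48), Zscan4b (-1.99) and Kdr (-1.53). The effect was higher in ESC for Nkx2-9 (3.24), Gfi1b (2.45) and Smad6 (1.71). The limma adjusted p was lowest for Cdh2 (0.000187) and highest for Kdr (0.0418). Zscan4b and Nkx2-9 were listed at 0 in all 4 Flk1+ samples, so for them the difference is that in ESC alone. Sp5, Kdr, Gfi1b and Dusp2 were under 1 FPKM in all 4 ESC samples. The effects on Sp5 (-1.88 in ESC, 3.26 in Flk1+ cells), Cdh2 (-1.84 and 0.65), Dusp2 (-0.998 and 1.48) and Gfi1b (1.42 and -1.03) had opposite signs in these populations.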

How the results depend on the processing

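The count of called genes (1644, with 785 higher and 859 lower) rests on the spread shared by all populations. It was 611 (384 higher, 227 lower) with the 6 ESC samples alone, 448 of these being called in the same direction in both fits, and limma called 0 with the 4 ESC samples alone (0 higher, 0 lower; 4469 at an unadjusted p below 0.05, smallest adjusted p 0.0544). With 1 sample left out, the lone sample being assumed to vary like the other groups, the count was 745 without WT replicate 1, 1014 without WT replicate 2, 499 without Sp3KO replicate 1 and 555 without Sp3KO replicate 2, with 251 to 469 higher and 248 to 545 lower. After correction for GC content and length it was 1075, with 477 higher and 598 lower, and Foxd3 (-0.22), Gsc (-0.10) and Mbd3 (-0.58) changed sign. The other alternatives (a pseudocount of 1, the filters on low values, no intensity trend, subtraction of chromosome medians, centring of samples) gave 1404 to 1883 genes. With a replicate block 1827 genes were called, although the numbers did not pair the WT and Sp3KO ESC samples. Sp3 kept a log2 difference of -3.18 to -3.00 without single samples and lost its call only with the 4 ESC samples alone (-3.09, limma adjusted p = 0.0544).

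The difference between ESC and Flk1+ effects was called for 215 genes, for 458 with a pseudocount of 1 (188 higher, 270 lower), for 294 with the replicate block (116 higher) and for 42 to 178 without single samples (13 to 63 higher, 29 to 115 lower). Of 96 named genes, 88 of them called, 56 kept the same call after GC correction, and 38 of the 88 were also called with the 6 ESC samples alone. FPKM give no depth, so the precision of low genes cannot be stated.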

Other observations

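Some lineage markers were called, beside 5.4% of all genes called higher and 5.91% lower. Of 13 endoderm markers Gata4, a transcription factor of primitive endoderm, was called higher (0.133 and 0.224 FPKM in WT, 0.97 and 0.752 FPKM in Sp3KO) and Cubn lower. Of 12 mesoderm markers Kdr, the receptor Flk1, was called lower (0.322 and 0.297 FPKM against 0.0316 and 0.0235 FPKM), and Gsc higher, from a listed 0 in both WT samples to 0.213 and 0.285 FPKM. Of 11 blood markers the transcription factor genes Gata2 (0.586 and 0.647 FPKM against 1.21 and 1.23 FPKM) and Gfi1b were called higher. After correction for GC content and length the calls of Gata4 and Kdr were kept, and those of Cubn, Gsc, Gata2 and Gfi1b were lost. Of 33 Polycomb subunits Ring1, Cbx6 and Cbx8 were called higher and Suz12 lower, from 94.4 and 85.9 FPKM to 57.2 and 57.2 FPKM. After correction for GC content and length the calls of Suz12 (limma adjusted p = 0.114) and Cbx8 (0.0917) were lost, and that of Ring1 was kept. With chromosome medians subtracted 0 of the 33 were called lower, and with the 6 ESC samples alone limma called 0 in either direction.

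Housekeeping groups split in direction, beside 5.4% of all genes called higher and 5.91% lower. Of 83 cytosolic ribosomal protein genes 18 were called lower and 7 higher, or 6 to 11 lower and 1 to 5 higher with 1 of the 4 ESC samples left out, among them Rpl27 (775 and 758 FPKM against 447 and 480 FPKM) and Rplp1, which rose by 1.07 on the log2 scale. Of 77 mitochondrial ribosomal protein genes 7 were called higher and 1 lower, of 75 respiratory chain genes 7 were called higher, and of 38 proteasome subunits 6 were called lower and 2 higher. With 1 sample left out, limma called 0 to 1 mitochondrial ribosomal protein gene and 0 to 5 respiratory chain genes higher, and after GC correction 4 respiratory chain genes were called higher and 4 lower. Mrpl52, a mitochondrial ribosomal protein, rose from 44.3 and 35.1 FPKM to 104 and 105 FPKM and Uqcrq, a subunit of complex III, from 5.27 and 4.86 FPKM to 15.3 and 16.2 FPKM. Of 108 small nucleolar and Cajal body RNA genes 5 were called higher, with Snord55 listed at 0 in both WT samples and at 13.7 and 20.1 FPKM in Sp3KO. Among 39 DNA replication genes 2 were called higher and 1 lower, among 28 Wnt pathway genes 1 each way, among 26 glutathione genes 1 each way, among 25 cholesterol synthesis genes 2 higher, and among 22 integrated stress response genes 1 higher. Limma called 0 of 19 FGF and ERK feedback genes, and at most 1 in a fit without a single sample. Tcf7l2, a nuclear effector of the Wnt pathway, rose from 0.678 and 0.752 FPKM to 2.47 and 2.44 FPKM.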
